A study of Mus musculus with 67 samples.

Results

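The accessible elements assigned to the genes of 8 Notch ligands and receptors were examined in neural progenitors (NPs) made from mouse embryonic stem (ES) cells. The ligand genes were Dll1, Dll3, Dll4, Jag1 and Jag2, and the receptor genes were Notch1, Notch2 and Notch3. An element was a member if the peak annotation deposited with the data named 1 of these genes as the one with the nearest transcription start site. The rule took 78 annotated elements, of which 69 had accessibility values, out of 111638 elements with values in all. Jag1 held 33 of them, Notch2 18, Dll1 5, Notch3 4, Dll4 3, Notch1 3, Dll3 2 and Jag2 1, so that 44 belonged to ligand genes and 25 to receptor genes. A nearest start site is an assignment by distance and does not show which gene an element acts on.

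HM1 mouse ES cells were directed toward the ventral spinal cord, sorted by type and profiled by CaTS-ATAC, in which fixed cells are transposed with Tn5, stained for intracellular proteins and sorted before the library is made. In N2B27 medium the cells received bFGF and LGK until day 2, and then bFGF, the Wnt agonist CHIR99021, the TGF-beta inhibitor SB-431542 and the BMP inhibitor DMH1 until day 3. From day 3 every NP culture received 100 nM retinoic acid with 0, 10, 100 or 500 nM SAG, an agonist of Smoothened that stands in for Sonic hedgehog. The day 3 cells, neuromesodermal progenitors (NMPs), were taken before that step at 0 nM SAG. SOX2+ NPs were taken at days 4, 5 and 6 as p0-1 (0 and 10 nM), p2 (10 and 100 nM), pMN (100 and 500 nM) and p3 (100 and 500 nM), named after progenitor domains of the ventral neural tube in order from dorsal to ventral. The gates used PAX6 without NKX6.1 for p0-1, NKX6.1 with PAX6 for p2, OLIG2 for pMN and NKX2.2 without OLIG2 for p3. Of the 25 conditions 17 had 3 libraries and 8 had 2, 67 libraries in all, from 1 cell line. Replicates of a condition were independent differentiations, but several types could be sorted from 1 dish, and the groups of a type and day pool the libraries of 2 SAG concentrations that may share a differentiation, so their n counts libraries and not independent differentiations. When libraries of a type and day with the same replicate number were averaged before the fit, an alternative chosen after the data were seen, 20 of 175 calls at members (each element in each pair of groups) were lost, and those among the values below are given with their adjusted p after averaging. For calls that were kept, the adjusted p is that before averaging unless stated, and averaging raised many of these too. All pMN and p3 libraries at day 6 were replicate 2 or 3. Values of a sorted population are averages over its cells, so fewer cells with an open element and less opening per cell cannot be told apart. No SAG concentration was shared by p0-1 with pMN or p3, so type and concentration cannot be told apart between them. p2 shared only 10 nM with p0-1 and only 100 nM with pMN and p3, and the groups compared pool both concentrations of a type.

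Notch signalling passes between touching cells. A Delta-like or Jagged ligand on 1 cell binds a Notch receptor on its neighbour, the receptor is cleaved, and its intracellular domain enters the nucleus and acts with the DNA-binding protein RBPJ on genes such as those of the Hes and Hey families. In the embryonic spinal cord Dll1 and Jag1 are known for their alternating dorsoventral stripes in the progenitor zone, and the pathway holds progenitors back from becoming neurons.

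The 69 elements lay between -550551 and +101328 bp from their assigned start site, with 32 in introns, 31 intergenic, 3 at promoters and 3 in exons. Their median accessibility was 114.5 normalized counts, against 41.42 over all elements, and 36 of them averaged more than 100. A normalized count is the number of reads in an element divided by the size factor of its library. The 67 libraries held 9298160 to 29985325 reads in elements (median 20254011), and replicate pairs of a condition correlated at 0.9026 to 0.9923. The library least like its group was p2 at day 6 and 100 nM, replicate 3 (median r 0.9168). Without it the counts below for p3 against the other types at day 6 and among p0-1, p2 and pMN were still 16 and 7. The median range of the 25 condition means, on the variance-stabilised (VST) scale that approximates log2, was 2.56 for the 69 elements and 2.32 for all elements. Each element is named below by its gene and its distance from the start site, and coordinates are those of mm10.

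The central 300 bases of 6 elements are printed as examples of the patterns described below, and are not a ranking. Dll1 -2975 bp and Jag1 -113477 bp rose from NMPs, Jag1 -340963 bp and Notch2 +22832 bp were higher in p3, and Jag1 -510806 bp and Notch1 +16359 bp were lower in p3. The strand is the plus strand of mm10, and capitals mark letters that match 1 of 9 short motifs on either strand (listed with their frequencies at the end).
Dll1 -2975 bp, chr17:15378649-15378948: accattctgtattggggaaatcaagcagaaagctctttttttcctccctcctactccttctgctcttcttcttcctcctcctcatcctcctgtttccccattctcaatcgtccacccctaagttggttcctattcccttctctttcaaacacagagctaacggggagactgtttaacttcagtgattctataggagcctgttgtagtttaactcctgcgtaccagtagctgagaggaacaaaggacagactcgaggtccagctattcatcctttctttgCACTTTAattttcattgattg
Jag1 -113477 bp, chr2:137229847-137230146: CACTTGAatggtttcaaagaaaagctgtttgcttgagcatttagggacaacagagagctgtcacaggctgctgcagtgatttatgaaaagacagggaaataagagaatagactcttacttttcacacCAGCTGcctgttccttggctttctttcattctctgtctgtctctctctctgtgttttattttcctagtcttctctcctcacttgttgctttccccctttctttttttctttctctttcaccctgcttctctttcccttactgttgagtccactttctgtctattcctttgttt
Jag1 -340963 bp, chr2:137457334-137457633: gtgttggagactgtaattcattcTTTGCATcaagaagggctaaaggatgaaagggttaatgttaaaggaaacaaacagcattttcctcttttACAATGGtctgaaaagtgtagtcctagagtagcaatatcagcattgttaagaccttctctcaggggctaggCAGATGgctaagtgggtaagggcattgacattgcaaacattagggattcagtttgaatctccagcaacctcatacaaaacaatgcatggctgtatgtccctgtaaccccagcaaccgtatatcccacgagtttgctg
Jag1 -510806 bp, chr2:137627176-137627475: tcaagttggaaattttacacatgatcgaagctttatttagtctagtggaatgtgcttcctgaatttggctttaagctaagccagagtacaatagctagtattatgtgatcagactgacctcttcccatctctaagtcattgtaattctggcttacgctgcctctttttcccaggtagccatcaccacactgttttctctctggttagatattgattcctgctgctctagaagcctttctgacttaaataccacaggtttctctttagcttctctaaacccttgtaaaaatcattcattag
Notch1 +16359 bp, chr2:26487314-26487613: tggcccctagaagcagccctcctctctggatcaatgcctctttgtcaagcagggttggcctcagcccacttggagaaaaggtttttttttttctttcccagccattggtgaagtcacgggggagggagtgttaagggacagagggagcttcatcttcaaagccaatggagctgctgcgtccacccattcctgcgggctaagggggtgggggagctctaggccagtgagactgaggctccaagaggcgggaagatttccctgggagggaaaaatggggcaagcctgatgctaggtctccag
Notch2 +22832 bp, chr3:98036221-98036520: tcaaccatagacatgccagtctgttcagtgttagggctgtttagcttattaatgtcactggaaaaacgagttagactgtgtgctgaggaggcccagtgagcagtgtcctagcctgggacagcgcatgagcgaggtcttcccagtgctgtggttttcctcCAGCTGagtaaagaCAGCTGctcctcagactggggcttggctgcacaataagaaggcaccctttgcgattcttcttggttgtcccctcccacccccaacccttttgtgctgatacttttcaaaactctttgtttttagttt

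**Figure D1:**
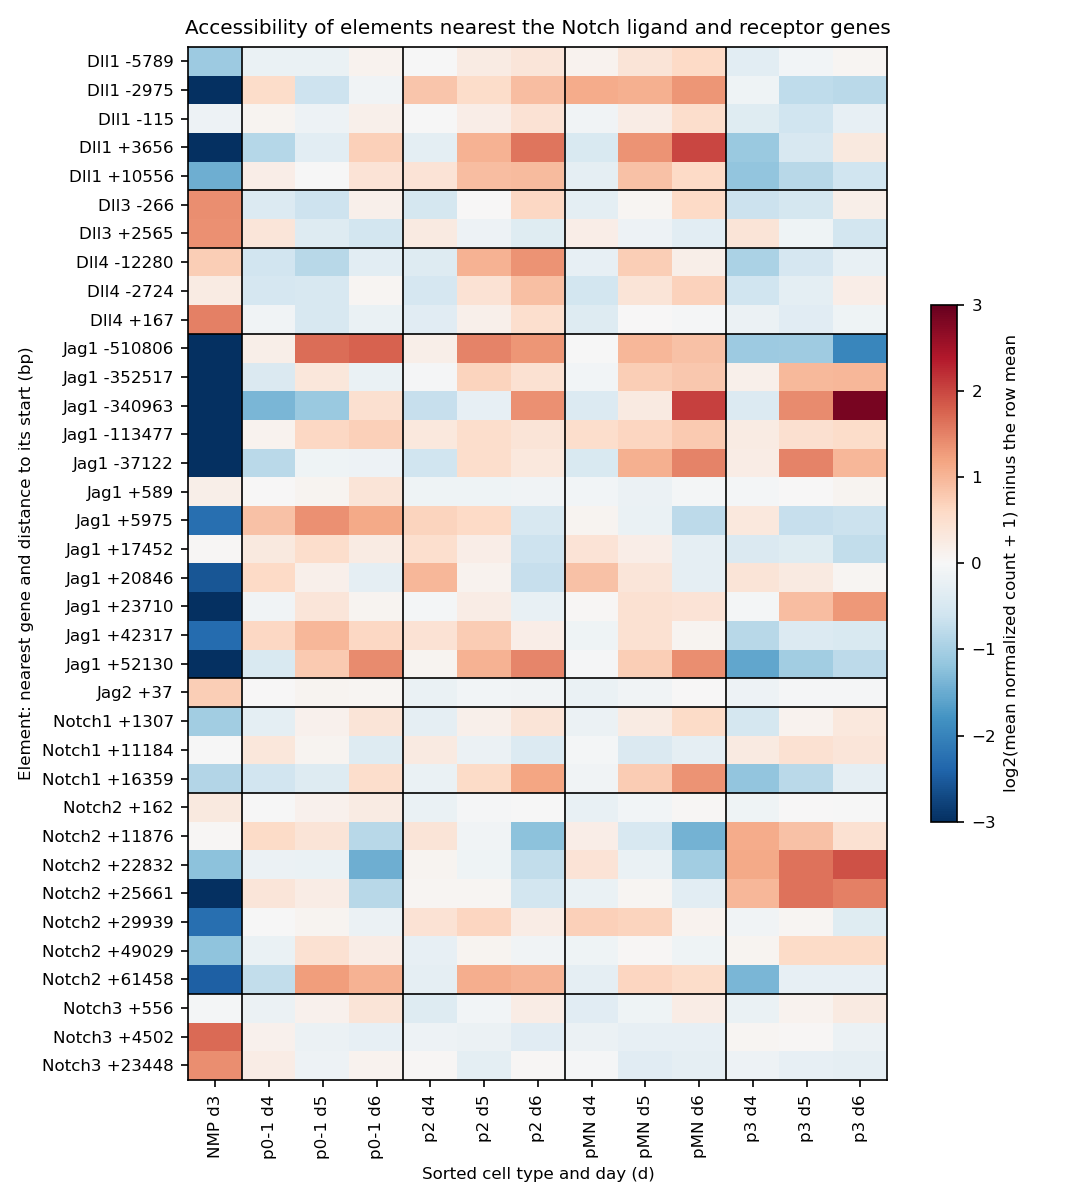
Accessibility of the 36 better covered elements (over 100 normalized counts on average), drawn as log2 of the group mean plus 1 minus the element's own average, with colours capped at -3 and 3. Elements are in rows by gene and distance in bp, and the columns are NMPs and the 4 NP types by day (d), both SAG concentrations pooled. The NMP column is low for 4 of the 5 Dll1 elements and most Jag1 elements, and the p3 columns stand apart within Jag1 and Notch2 in both directions.

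Elements were compared between groups with limma on the VST values, 1 pair of groups at a time, and elements that averaged 100 normalized counts or fewer over that pair were left out. In any pair an element could therefore be tested only through the group where it was high. Called elements are those where the Benjamini-Hochberg adjusted p was under 0.01 and the fold change above 2. Fold changes are log2 ratios of group means of normalized counts after adding 1. Each SE and adjusted p belongs instead to the difference of mean VST values, which can be smaller than the printed fold. At Jag1 -113477 bp from NMPs to pMN, for example, the fold was 6.416 and the VST difference 5.615. Of the 69 elements 41 were tested in at least 1 comparison and 28 were called in at least 1. The share of all elements called in at least 1 is not given, so this is a tally and not a result about the members. The 28 that were never tested averaged 5.55 to 55.63 normalized counts over all libraries.

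The first comparison asked how accessibility changed as NMPs became each of the 4 NP types at day 4. Of the 30 elements tested 20 were called, 14 higher and 6 lower in NPs, where 54.5% of all elements tested were called (25% higher and 29.6% lower). The direction went by gene. Dll1 (4 elements), Jag1 (5 of 7 tested) and Notch2 (5 of 6 tested) held all 14 that rose, and Dll3 (2), Dll4 (2) and Notch3 (2) held all 6 that fell. The filter used the mean over both groups, so some elements were tested only through the group where they were high. Examples are Dll1 +3656 bp (18.95 in NMPs, 182.5 in p2), Notch2 +22832 bp (41.49 in NMPs, 133.1 in pMN) and Notch3 +4502 bp (365.9 in NMPs, 99.05 in pMN). The fractions of tested elements and the split by gene therefore depend on the filter as well. None of the 3 Notch1 elements and not the single Jag2 element was called. In the fits to p0-1, p2 and pMN the median change of the elements was 0.31, 0.42 and 0.18 on the log2 scale against -0.39, -0.51 and -0.49 over all elements tested, and in the fit to p3 it was -0.14 against -0.46.

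Dll1 encodes a Delta-like ligand that activates Notch on neighbouring cells. Its element at -2975 bp (chr17:15378477-15379120, intergenic) had 26.67, 40.46 and 24.77 normalized counts in the 3 NMP libraries. The 6 pMN libraries at day 4 lay between 921.1 and 1206 with a median of 1066. No library of any NP type at day 4 came near the NMP values, since the lowest was a p3 library at 347.2. The rise was 5.07 on the log2 scale in pMN (SE 0.13 on the VST scale, adjusted p = 1.35e-13, limma) and 3.82 in p3 (SE 0.18, adjusted p = 2.44e-11).

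The element in the fourth intron of Dll1 at +3656 bp (chr17:15371769-15372566) had 19.39, 20.23 and 17.23 normalized counts in NMPs and rose by 3.04 to pMN (SE 0.17, adjusted p = 1.56e-09). It continued to rise from day 4 to day 5 in pMN, by 1.81 (SE 0.12, adjusted p = 6.08e-09), and in p2, by 1.32 (SE 0.20, adjusted p = 6.28e-05). The element at -2975 bp did not follow it. In pMN it averaged 1061 ± 95.08 normalized counts at day 4 (SD, n = 6) and 1019 ± 100.4 in day 5 cells (SD, n = 5), and in p0-1 it fell from 720.8 ± 91.78 (SD, n = 6) to 319.9 ± 85.46 (SD, n = 6), a log2 change of -1.17 (SE 0.17, adjusted p = 5.55e-05). The Dll1 element next to the start site, at -115 bp, was already at 1455 ± 95.23 (SD, n = 3) in NMPs and was called in no comparison.

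Dll1 elements at -2975, +3656 and +10556 bp separated NP types, and those at -115 and -5789 bp were not called between types. At day 4, -2975 bp was already lower in p3 than in pMN (-1.25, SE 0.10, adjusted p = 5.33e-07) and +10556 bp lower in p3 than in p2 (-1.60, SE 0.20, adjusted p = 8.14e-05), although the second call was lost without replicate 2. The +10556 bp element averaged 150.1 in p2 and 48.89 in p3, so it was tested only through p2, where it was high. At day 4 it was not tested between p3 and p0-1 or pMN. At day 6 the 4 pMN libraries had 1220, 1357, 1153 and 1204 normalized counts at -2975 bp, and the 4 p3 libraries 336.4, 259.4, 269.1 and 242.8. The groups did not overlap, and p3 was lower by a log2 change of -2.15 (SE 0.11, adjusted p = 3.19e-06, and 0.000899 after averaging). The 6 p2 libraries lay between 649.5 and 1061 (median 950.2), and the 5 p0-1 libraries between 277.8 and 605.2 (median 481.1). From p0-1 to pMN the element was higher by 1.43 (SE 0.23, adjusted p = 0.000748) and from p0-1 to p2 by 1.03 (SE 0.21, adjusted p = 0.00442, but 0.0226 after averaging), whereas p2 and pMN (0.40, adjusted p = 0.041) and p0-1 and p3 (-0.72, adjusted p = 0.0552) did not pass. The order of the means at day 6 was thus pMN, p2, p0-1 and p3, with neither the first pair nor the last pair separated by the test.

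The intronic element at +3656 bp had the same order of means at day 6. It had 871.4, 1055, 707.4 and 943.5 normalized counts in pMN and 247.3, 316.4, 257.5 and 281.6 in p3, a log2 difference of -1.69 (SE 0.13, adjusted p = 1.15e-05). The weaker element at +10556 bp (chr17:15363717-15366818) was also lower in p3, at 75.02 ± 14.67 (SD, n = 4) against 171.1 ± 19.09 (SD, n = 4) in pMN. The fold from pMN was -1.18 on the log2 scale (SE 0.17, adjusted p = 0.000449, but 0.026 after averaging).

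Markers of neurons moved across these groups too. All 3 genes of the neuron list (Tubb3, Elavl3 and Dcx) had elements, and their summed accessibility per library at day 6 was 5735 to 6286 normalized counts in pMN, 3570 to 7062 in p2, 3004 to 4773 in p0-1 and 3421 to 4918 in p3. At day 4 it lay between 2244 and 3017 in all 4 types. The sort kept SOX2+ cells, and the part of neuronal cells in the differences at Dll1 was not tested.

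Dll3 encodes a divergent Delta ligand that acts within the cell in which it is made rather than as an activator on neighbours. Its promoter element at -266 bp (chr7:28301273-28302830) had 1001, 1133 and 930.5 normalized counts in NMPs and fell in all 4 NP types. In p3 at day 4 it was at 245.5 ± 13.14 (SD, n = 5), a log2 change of -2.05 (SE 0.12, adjusted p = 1.62e-10). Later differences did not pass the fold threshold, with means of 313.3, 403.1 and 583.6 in pMN and 245.5, 265.6 and 436.5 in p3 at days 4, 5 and 6. The second element, at +2565 bp, fell by a log2 change between -1.18 and -1.01 in p0-1, p2 and pMN.

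Dll4 encodes a Delta-like ligand known from endothelium and from newborn V2 interneurons, which arise from p2. The element over its first exon at +167 bp (chr2:119324803-119327099) had 1327, 1180 and 1080 normalized counts in NMPs and 320.6 ± 51.29 (SD, n = 6) in pMN at day 4, a log2 change of -1.90 (SE 0.14, adjusted p = 4.35e-09). The upstream element at -12280 bp (chr2:119311683-119315326) fell as well in p0-1, p2 and p3, from 194.3 ± 43.53 (SD, n = 3) in NMPs to means of 59.61 to 89.3 at day 4. In pMN, with a mean of 98.64, the log2 change of -0.97 (adjusted p = 0.000128) was below the fold threshold.

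From day 4 to day 5 the -12280 bp element rose in p2 by 1.41 (SE 0.24, adjusted p = 0.000674). The 6 p2 libraries at day 5 had 439.2, 329.7 and 178.6 normalized counts at 10 nM SAG and 216.3, 149.5 and 121.1 at 100 nM. The 6 p0-1 libraries lay between 47.46 and 97.28, below every p2 library, and the difference was 1.87 (SE 0.27, adjusted p = 0.00128, but 0.011 after averaging). pMN at day 5 was at 193.5 ± 46.72 (SD, n = 5), also above p0-1, by 1.57 (SE 0.18, adjusted p = 3.87e-05). At day 6 p2 (298 ± 101.3, SD, n = 6) and p0-1 (93.05 ± 14.38, SD, n = 5) still differed, by 1.67 (SE 0.26, adjusted p = 0.00235, but 0.0134 after averaging), while pMN was at 131.9 ± 17.2 (SD, n = 4) and was not called against p0-1. The neuron list again moved alongside, with 2925 to 5900 normalized counts in p2, 4310 to 4906 in pMN and 2400 to 3382 in p0-1 at day 5, and its part was not tested.

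**Figure D2:**
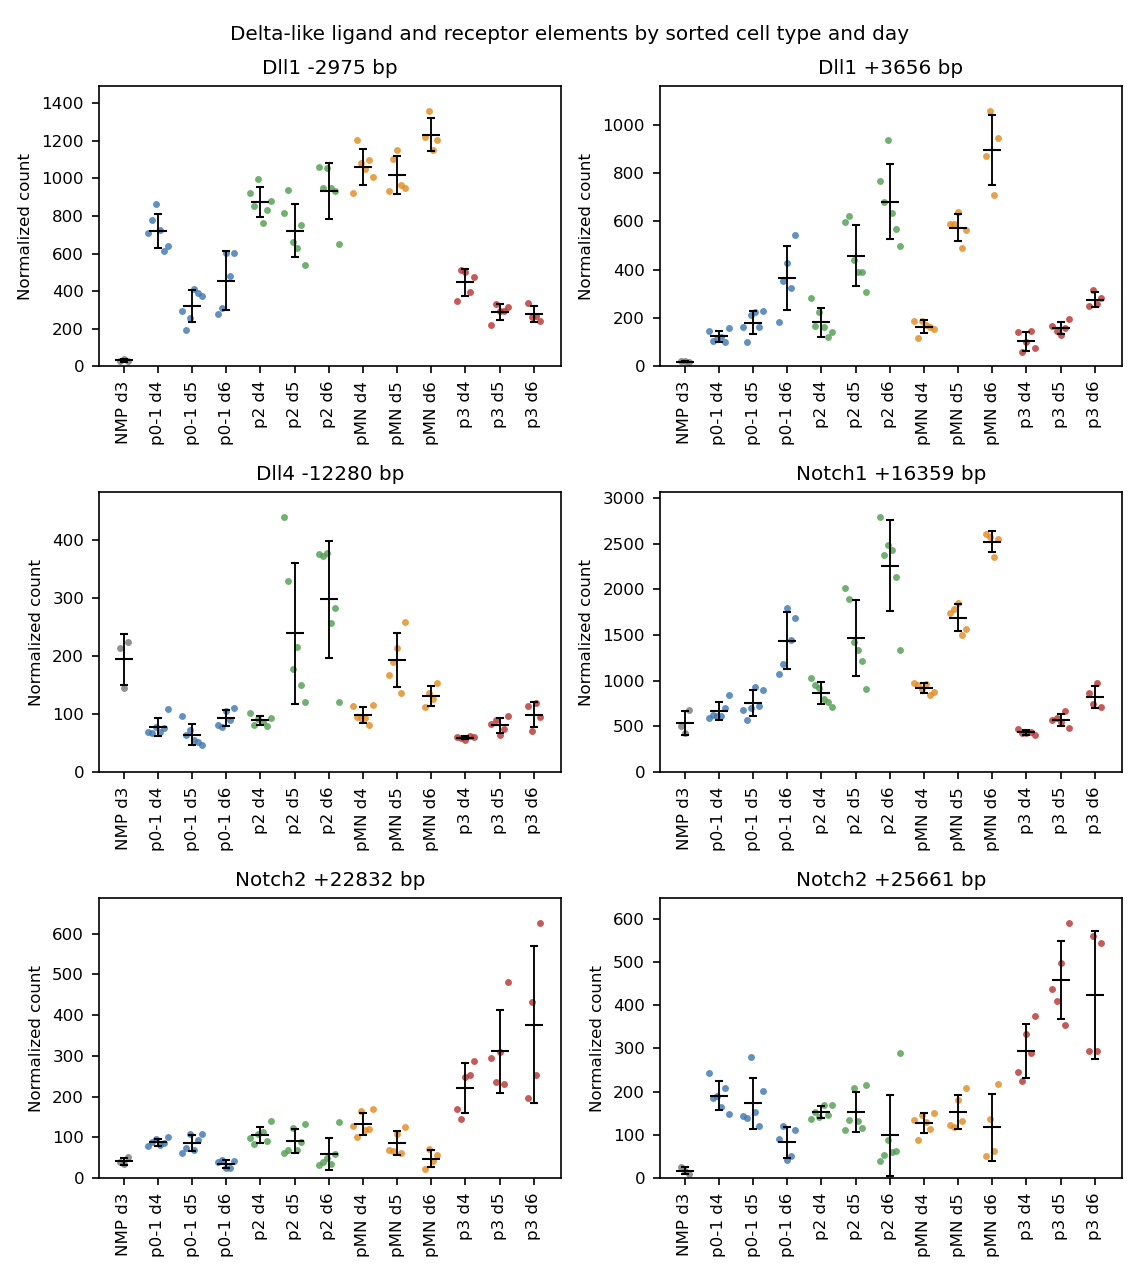
Normalized counts of 6 elements of Dll1, Dll4, Notch1 and Notch2 in each library, by cell type and day (d), with points for libraries of both SAG concentrations and bars for the mean ± SD. The 4 pMN libraries at day 6 lay at 1153 to 1357 for Dll1 -2975 bp, above the p3 libraries at 242.8 to 336.4, and Notch2 +22832 bp had the opposite order.

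Jag1 encodes a Jagged ligand and had the most elements, 33 spread from -550551 to +101328 bp, of which 12 averaged above 100 normalized counts. The largest change of any member was at -113477 bp (chr2:137229362-137230632, intergenic). It had 18.18, 8.093 and 8.616 normalized counts in NMPs and 987 to 1218 (median 1075) in the 6 pMN libraries at day 4. The rise was 6.42 (SE 0.14, adjusted p = 7.72e-14) in pMN and 6.01 to 6.21 in the other 3 types, and after day 4 the element was called in no comparison between days or NP types.

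The 3 intronic Jag1 elements at +5975, +20846 and +23710 bp and the intergenic one at +42317 bp, beyond the end of the gene, rose from NMPs to all 4 types. The +20846, +23710 and +5975 bp elements rose by 2.95 to 3.55, 3.22 to 3.37 and 2.34 to 3.13, and the +42317 bp element by 1.48 in p3 and 2.17 to 2.92 in the others. The element over the start site at +589 bp (chr2:137114077-137117786) did not move with them. It was at 2394 ± 221.7 (SD, n = 3) in NMPs, between 1947 and 2152 on average in the 4 types at day 4, and was never called.

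The Jag1 elements then diverged between p3 and the other NPs, in both directions. The distal element at -340963 bp (chr2:137457123-137457844, intergenic) had 2.424 to 7.539 normalized counts in NMPs and 83.34 ± 34.27 (SD, n = 5) in p3 at day 4. At day 6 the 4 p3 libraries had 733.8, 837.2, 755.3 and 873.9, the 4 pMN libraries 469.7, 479.8, 402.8 and 504.4, the p2 libraries 226.5 to 396.2 and the p0-1 libraries 72.99 to 220.6. In the order p0-1, p2, pMN and p3 each type lay above the one before without overlap. p3 was higher than p0-1 by 2.37 (SE 0.26, adjusted p = 2.31e-05) and than p2 by 1.48 (SE 0.14, adjusted p = 4.46e-06). Against pMN the difference of 0.78 (SE 0.10, adjusted p = 0.00012) was below the fold threshold at day 6, although at day 5 it was 1.14 (SE 0.16, adjusted p = 0.000129).

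The most distal of the called elements, at -510806 bp (chr2:137626940-137627712, intergenic), was ordered the other way. At day 6 it had 31.33, 17.29, 8.084 and 6.797 normalized counts in p3 and 175.4, 204.2, 247.6, 244.6 and 238.2 in p0-1, a log2 difference of -3.72 (SE 0.27, adjusted p = 3.74e-06). p2 at 163.2 ± 14.07 (SD, n = 6) was above p3 as well (p3 against p2 -3.28, SE 0.25, adjusted p = 2.59e-06). It had been at 1.212, 1.349 and 4.308 in NMPs, so that p3 at day 6 lay nearer to NMPs than to the other NPs. pMN averaged 119.9 ± 24.68 (SD, n = 4) at day 6, and its difference from p3 was not tested because the pair fell below the filter of 100.

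Another pattern was seen at +52130 bp (chr2:137063664-137065117), which lies in an intron of the neighbouring gene Slx4ip. It was lower in p3 than in each other type at day 5 and at day 6. At day 6 the p3 libraries had 102.2, 77.31, 79.69 and 51.46 normalized counts and the pMN libraries 432.1, 391.5, 326.7 and 267.4, a log2 difference of -2.18 (SE 0.21, adjusted p = 4.05e-05). Within the introns of Jag1, +23710 bp was higher in p3 at day 6 (1195 ± 255.7, SD, n = 4) than in p2 (411.1 ± 133.1, SD, n = 6) by 1.54 (SE 0.20, adjusted p = 6.15e-05), and beyond the end of the gene +42317 bp was lower in p3 (181.5 ± 39.94, SD, n = 4) than in p0-1 (381.3 ± 87.4, SD, n = 5) by a log2 change of -1.07 (SE 0.19, adjusted p = 0.00105), a call that was lost without replicate 3.

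Another pair of Jag1 elements set p0-1 apart from pMN. The one in intron 2 at +5975 bp (chr2:137109902-137111189) was at 659.8 ± 169.3 (SD, n = 6) in p0-1 at day 5, above pMN (222.7 ± 42.38, SD, n = 5, pMN against p0-1 -1.56, SE 0.16, adjusted p = 1.02e-05) and p3 (157.9 ± 36.5, SD, n = 5, p3 against p0-1 -2.06, SE 0.18, adjusted p = 5.68e-07). At day 6 its 5 p0-1 libraries ranged from 251.9 to 1149, and the call against p3 (-1.78, adjusted p = 0.00718) and against pMN (-1.93, adjusted p = 0.00912) stood near the threshold. The call against p3 at day 6 was lost without replicate 2, without replicate 3, with the description numbers as a block, without the variance trend, with voom and after averaging (adjusted p = 0.0576). The call against pMN at day 6 was lost in the last 4 of these settings (adjusted p = 0.0914 after averaging). The one at -37122 bp (chr2:137153146-137154139) ran the other way, at 333.5 ± 59.47 (SD, n = 4) in pMN and 107.1 ± 22.73 (SD, n = 5) in p0-1 at day 6 (1.63, SE 0.19, adjusted p = 0.000193, but 0.0104 after averaging).

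**Figure D3:**
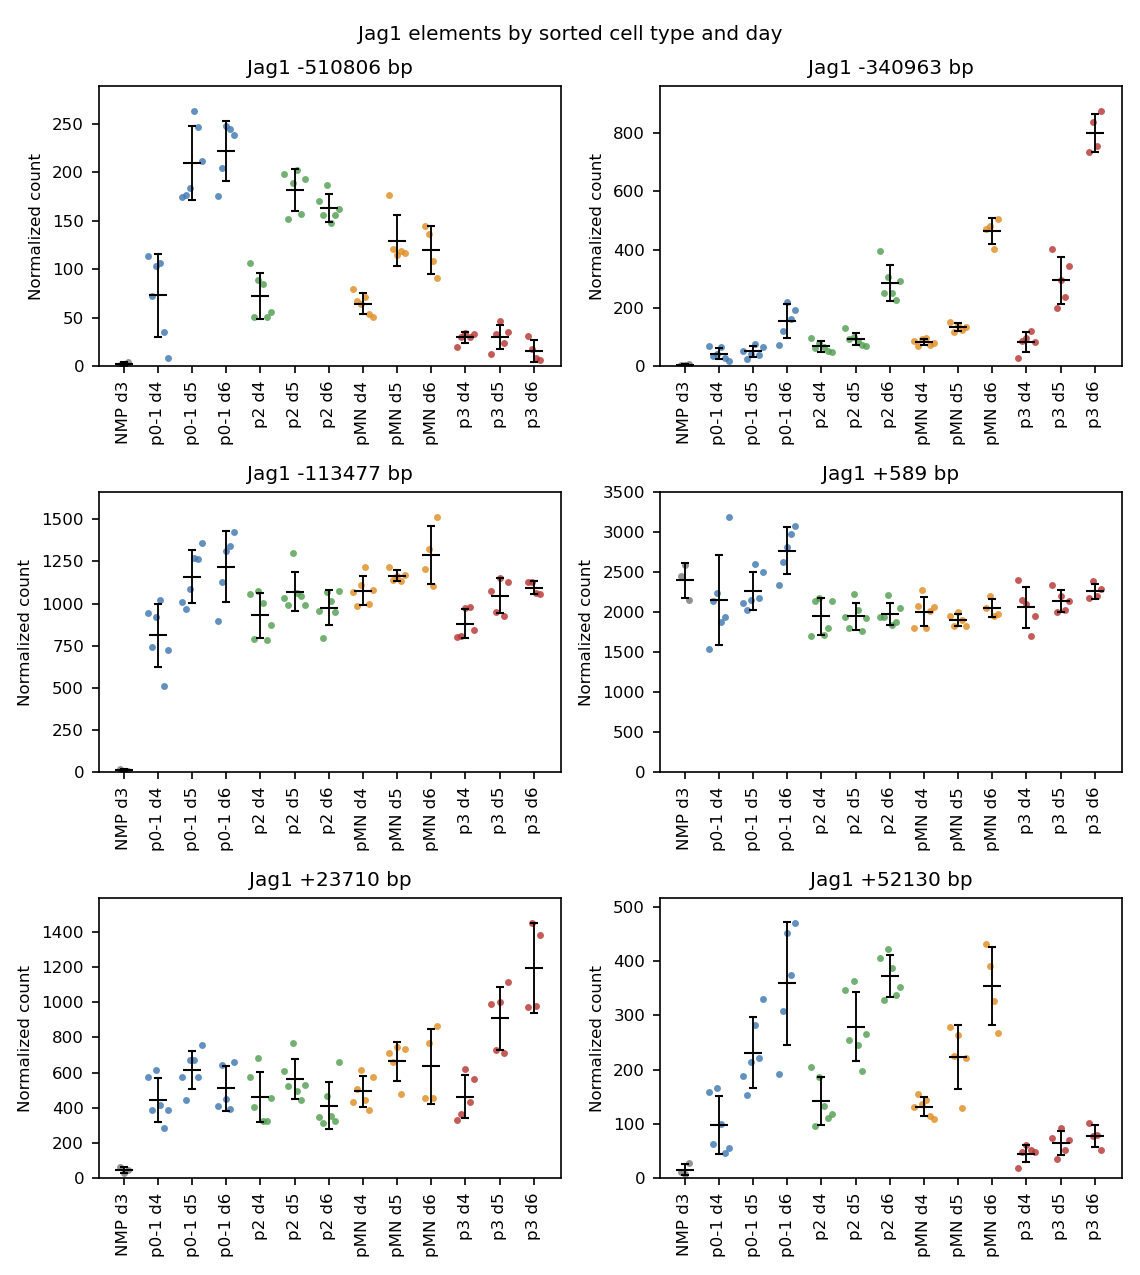
Normalized counts of 6 Jag1 elements in each library, by cell type and day (d), with points for libraries of both SAG concentrations and bars for the mean ± SD. The start-site element at +589 bp stayed between 1536 and 3182 in every NP library, while -340963 bp reached 733.8 to 873.9 in p3 at day 6 and -510806 bp stayed at 6.797 to 31.33 there.

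**Figure D4:**
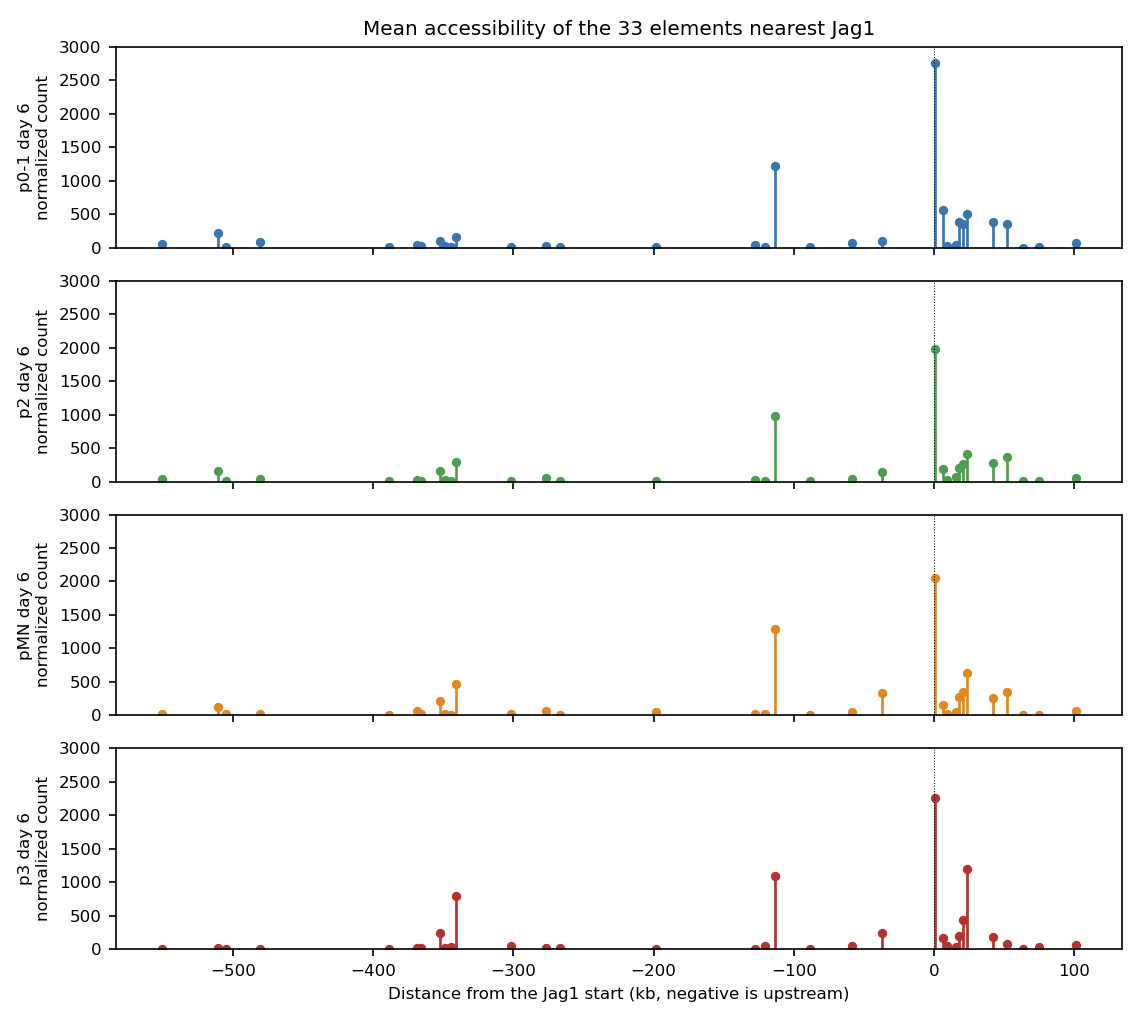
Mean normalized count of each of the 33 Jag1 elements at day 6, in 1 panel for each of p0-1, p2, pMN and p3, against its distance from the Jag1 start site in kb. The start-site element is the highest in every panel (1975 to 2765), and the line at -340963 bp grows from 154.3 in p0-1 to 800 in p3.

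Jag2, the other Jagged ligand gene, had a single element over its start site (+37 bp, chr12:112928355-112930561). It was at 1614 ± 110.8 (SD, n = 3) in NMPs and at 833.1 to 976 on average at day 4, a log2 change of -0.95 in p2 (SE 0.13, adjusted p = 8.56e-06) that stayed under the fold threshold. It was called in all 4 types without replicate 3 and in p2 and pMN without replicate 2. Apart from the step from NMPs its largest change in any comparison was -0.23, from p0-1 to p2 at day 4.

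Notch1, the receptor gene best known in neural progenitors, had 3 elements, all intronic. The strongest of all 69 members was the one at +1307 bp (chr2:26500417-26504613, intron 1), with 2064, 1849 and 2079 normalized counts in NMPs. Its mean was higher at each later day in each type without passing the fold threshold, for example 3617 ± 220.7 (SD, n = 6), 4908 ± 206.3 (SD, n = 5) and 6144 ± 137.5 (SD, n = 4) in pMN at days 4, 5 and 6. The largest single step was from NMPs to pMN, at 0.86 (SE 0.07, adjusted p = 1.7e-08).

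The intron 2 element of Notch1 at +16359 bp (chr2:26485761-26489166) separated p3 from pMN at all 3 days. At day 6 the pMN libraries had 2607, 2569, 2353 and 2555 normalized counts and the p3 libraries 869, 745.6, 977.1 and 714.7, with no overlap. The log2 difference was -1.61 (SE 0.10, adjusted p = 4.41e-06, and 0.00104 after averaging). p2 was at 2257 ± 496.6 (SD, n = 6) and p0-1 at 1436 ± 312 (SD, n = 5), so the order of means was that of Dll1 +3656 bp. The neuron list, at 5735 to 6286 in pMN and 3421 to 4918 in p3, moved with this difference too, and its part was not tested. Over the 25 condition means the correlation between these 2 elements of different genes was 0.907, a description over conditions that share libraries and a time course. It lay near the top of the 523 pairs from different genes, which ran from -0.95 to 0.914 with a median of 0.0147. The third element, at +11184 bp, was called in no comparison and had its highest mean at day 5 in p3 (296.8 ± 33.93, SD, n = 5).

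Notch2 had 18 elements with values, of which 7 averaged above 100 normalized counts. Of its elements 3 in intron 1 were higher in p3, at +11876 bp (chr3:98024152-98026676), +22832 bp (chr3:98034968-98037773) and +25661 bp (chr3:98038376-98040022). The last 2 are adjacent and separated by 602 bp, while 2 other elements lie between +11876 and +22832 bp. The start-site element at +162 bp was never called and averaged 830.2 to 1177 over NMPs and the 12 groups of type and day.

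At +22832 bp the 4 p3 libraries at day 6 had 197.9, 432.3, 252.9 and 625.3 normalized counts, the higher pair being replicate 3 at each SAG concentration and the lower pair replicate 2. The pMN libraries had 22.41, 71.36, 42.09 and 56.05 and the p0-1 libraries 23.67 to 43.62, all below every p3 library. p3 was higher than p0-1 by 3.39 (SE 0.32, adjusted p = 2.19e-05), than p2 by 2.66 (SE 0.38, adjusted p = 0.000189) and than pMN by 2.95 (SE 0.38, adjusted p = 0.000317). At day 4 the element had been at 220.6 ± 60.93 (SD, n = 5) in p3 and between 88.51 and 133.1 on average in the other types.

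The neighbour at +25661 bp was higher in p3 by the same comparisons. Its p3 libraries at day 6 had 295.2, 560.5, 294.5 and 544.7 normalized counts and its pMN libraries 51.1, 137.1, 63.13 and 217.2, again with replicate 3 above replicate 2 in each pair (1.85, SE 0.41, adjusted p = 0.00402, but 0.0295 after averaging). A single p2 library at 288.4 came close to the lowest p3 library, and the rest of p2 lay at 39.95 to 88.96. The +11876 bp element was more widely open, with 750 ± 180.2 (SD, n = 3) in NMPs, and was higher in p3 (1015 ± 363.9, SD, n = 4) than in pMN (273.1 ± 126.5, SD, n = 4) by 1.89 (SE 0.35, adjusted p = 0.00145) at day 6, a call that was lost after averaging (adjusted p = 0.0156). The +25661 and +11876 bp elements also rose from NMPs to p3 at day 4, by 4.02 (SE 0.22, adjusted p = 3.82e-10) and 1.08 (SE 0.13, adjusted p = 1.01e-06), and the second of these calls was lost without replicate 2.

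Farther along the gene, the intron 4 element at +61458 bp (chr3:98074513-98075479) ran opposite. It rose from day 4 to day 5 in p0-1, from 72.5 ± 33.31 to 290.3 ± 38.41 (SD, n = 6 at each day, 1.99, SE 0.23, adjusted p = 9.18e-06), and was lower in p3 (101.8 ± 15.53, SD, n = 4) than in p0-1 (249.4 ± 23.13, SD, n = 5) at day 6 (-1.29, SE 0.14, adjusted p = 4.42e-05). The +68008 bp element was highest in p3 at day 5, at 178.1 ± 39.47 (SD, n = 5) against 71.56 to 81.2 in the other types. At day 6 it averaged 117.6 in p3 and 24.27 to 40.42 in the others, below the filter of 100 in each pair of groups.

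Notch3 had 4 elements, and its calls were limited to the step from NMPs. The element at +4502 bp (chr17:32162007-32162770) had 393.9, 360.1 and 343.5 normalized counts in NMPs and 99.05 ± 8.138 (SD, n = 6) in pMN at day 4, a log2 change of -1.88 (SE 0.12, adjusted p = 2.65e-09). The exon 24 element at +23448 bp (chr17:32143068-32143816) fell from 301.2 ± 33.97 (SD, n = 3) to 110.2 ± 11.5 (SD, n = 6), a change of -1.44 (SE 0.13, adjusted p = 1.35e-07). From day 5 on the group means of +4502 bp were 89.48 to 115.9 and those of +23448 bp 89.62 to 122.1, and the start-site element at +556 bp was never called.

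Of the 8 elements nearest to the start sites, those of Dll3 and Dll4 were called, and only in the step from NMPs. The share called among all start-site elements is not given, so this count is not a trait of these genes. Across the genome the paper reports more cell-type specificity at distal elements than at promoters. After that step the largest change of any of the 8 in any comparison was -0.80, at Dll1 -115 bp between pMN and p3 at day 5 (adjusted p = 2.17e-07).

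In the comparisons of p3 with p0-1, p2 and pMN, 7 of 32 elements tested were called at day 4 (2 higher and 5 lower in p3), 16 of 38 at day 5 (6 higher, 10 lower) and 16 of 36 at day 6 (6 higher, 10 lower). Among all elements tested, 11.4% were called at day 4 (3.93% higher, 7.50% lower), 27.0% at day 5 (9.58% higher, 17.5% lower) and 34.9% at day 6 (14.1% higher, 20.9% lower). At day 6 the higher elements were 3 of Jag1 and 3 of Notch2. The lower ones were 3 of Dll1, 4 of Jag1 and 1 each of Dll4, Notch1 and Notch2. The 3 comparisons at a day share the p3 libraries. As in the step from NMPs, some elements were tested only through the group where they were high. Examples at day 6 are Jag1 -510806 bp (222 in p0-1, 15.88 in p3) and Notch2 +22832 bp (35.11 in p0-1, 377.1 in p3). The fractions of tested elements and their directions therefore depend on the filter as well. Jag1 +52130 bp, Notch2 +22832 bp and Notch2 +25661 bp were called against each of the other 3 types at day 6. Of the 7 called at day 4, Notch2 +22832 bp and Notch2 -27215 bp were lost without replicate 1 and Dll1 +10556 bp without replicate 2. Of the 16 called at day 6, Dll4 -12280 bp was lost without replicate 2 and Jag1 +42317 bp without replicate 3. Jag1 -37122 bp was lost without replicate 2 and after averaging, and Notch2 +11876 bp after averaging. Jag1 +5975 bp was lost in the 6 settings given above, averaging among them, so that 13 were called after averaging.

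**Figure D5:**
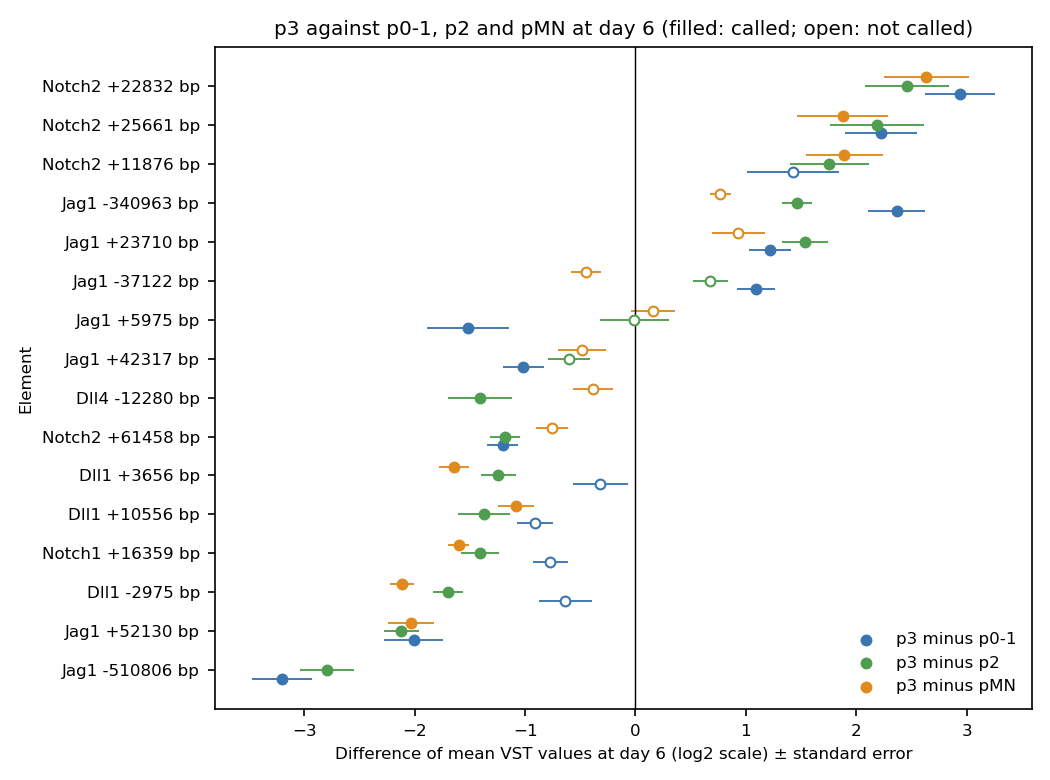
Difference of mean VST values (log2 scale) from p0-1, p2 and pMN to p3 at day 6 for the 16 called members, 1 row each, with the standard error as a bar and open symbols where the pair was not called. Positive values are higher in p3, up to 2.94 at Notch2 +22832 bp, and the lowest is -3.20 at Jag1 -510806 bp, both from p0-1.

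Marker genes of the sorted types were checked in the same way. The summed elements of Olig2, a gate protein, at day 6 were at 9778 to 11990 normalized counts in pMN and 2640 to 4650 in p3. Those of Foxa2, which is known from p3 and from the floor plate, the neighbouring ventral midline, were at 10170 to 16340 in p3 and 2681 to 5948 in the other types. Those of Dbx1, a p0 factor, were at 5785 to 6836 in p0-1 and 1385 to 2692 in the others. The paper compared these cultures with floor plate cultures and reports that floor plate markers were little expressed, also at day 6. In the accessibility values the part of floor plate cells in the differences between p3 and the other NPs was not tested.

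Among p0-1, p2 and pMN at the same day, 7 of 38 elements tested were called, 6 higher and 1 lower in the more ventral type, where 16.5% of all elements were called, 11.2% higher and 5.54% lower. All 7 were called at day 5 or day 6. The 6 higher were Dll1 -2975 bp, Dll1 +3656 bp, Dll4 -12280 bp, Jag1 -340963 bp, Jag1 -37122 bp and Notch1 +16359 bp, and the lower one was Jag1 +5975 bp. The call of Jag1 -340963 bp was lost without replicate 2, without replicate 3 and after averaging (adjusted p = 0.0181).

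Over time within a type, 10 of 39 elements were called from day 4 to day 5 (9 higher, 1 lower, with 25.3% of all elements called, 19.3% higher and 5.94% lower). From day 5 to day 6, 1 of 40 was called, higher, with 8.35% of all called, 5.56% higher and 2.80% lower. That element was Jag1 -340963 bp, which rose in p2 by 1.62 (SE 0.16, adjusted p = 4.68e-05), in pMN by 1.80 (SE 0.11, adjusted p = 1.51e-05) and in p3 by 1.44 (SE 0.18, adjusted p = 0.000673, but 0.0533 after averaging). The 8.35% is for fits without a block, and the share of all elements with one is not given. With the replicate number as a block, which paired the libraries in this comparison, 5 elements were called. Those gained were Dll1 +3656 bp (1.02 in p0-1), Notch2 +11876 bp (-1.21 in p0-1 and -1.12 in p2), Notch2 +25661 bp (-1.06 in p0-1) and Jag1 +5975 bp (-1.08 in p2). Single libraries also moved this count, to 3 without replicate 2 or replicate 3 of p0-1 at day 6 and 0 nM, and to 4 without replicate 3 of p2 at day 6 and 100 nM.

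Whether the change from day 4 to day 6 differed between p3 and the mean of the other 3 types was tested as an interaction on the VST scale. Of 35 elements 3 were called, all 3 with the higher change in p3, where 10.5% of all elements were called, 4.14% with a higher and 6.34% with a lower change in p3. Notch2 +22832 bp changed by 0.65 in p3 and -1.10 in the others, a difference of 1.75 (SE 0.32, adjusted p = 4.74e-05). Jag1 -340963 bp rose in all types, by 3.19 in p3 and 1.95 in the others (difference 1.24, SE 0.30, adjusted p = 0.00163). Jag1 +23710 bp changed by 1.36 and 0.12 (difference 1.24, SE 0.27, adjusted p = 0.000614). The number called was 1 or 2 when all libraries of 1 replicate number were left out. Jag1 -340963 bp was lost without replicate 1, 2 or 3, Jag1 +23710 bp without replicate 1 and Notch2 +22832 bp without replicate 3. After averaging 1 was called, Notch2 +22832 bp, and the adjusted p was 0.0134 for Jag1 -340963 bp and 0.013 for Jag1 +23710 bp.

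The 2 SAG concentrations that gave each type were compared at day 5, the question being whether accessibility followed the sorted type or the dose. None of 40 elements was called by limma. Of all elements tested 0.00251% were called (1 of 39881), all of that share (0.00251%) higher at the higher concentration. An unadjusted p under 0.05 was found for 18 of the 40 in at least 1 of the 4 fits (10 in p0-1, 10 in p2, 2 in pMN and 0 in p3). The share of all elements at that level is not given, so the 18 cannot be set against it. With the replicate block 831 elements of the genome were called and again 0 of the 40. The largest fold among the 40 was at Dll4 -12280 bp between 10 and 100 nM in p2 (315.8 and 162.3 normalized counts, -0.96, adjusted p = 0.38) and the smallest adjusted p at Jag1 -352517 bp between 0 and 10 nM in p0-1 (111.9 and 193, 0.78, adjusted p = 0.0519). An adjusted p above the threshold with 2 or 3 libraries per concentration does not show equal accessibility.

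Within a locus the elements did not all share a time and type course. Over the 25 condition means, the median correlation between pairs of elements with a mean above 100 was 0.73 in Dll1 (10 pairs), 0.69 in Dll4 (3 pairs), 0.34 in Jag1 (66 pairs, from -0.66 to 0.92) and 0.22 in Notch2 (21 pairs). It was 0.05 in Dll3 (1 pair), -0.11 in Notch3 (3 pairs) and -0.48 in Notch1 (3 pairs). Pairs from different genes had a median of 0.01 (523 pairs, from -0.95 to 0.91). The points of each correlation share libraries and the time course, and the values are given as descriptions. By the same measure the element outside the 8 genes most like Dll1 +3656 bp was Spsb4 -32969 bp (r = 0.988), that most like Jag1 -113477 bp was H2afy3 -251459 bp (r = 0.995), that most like Notch1 +16359 bp was Smim38 +34989 bp (r = 0.987) and that most like Notch2 +25661 bp was Cct2 -31149 bp (r = 0.975).

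The rest of the pathway was read from a list of 39 other genes for Notch processing, modulation, transcription and targets, of which 37 had elements (225 in all). From NMPs to day 4, 50 of 100 elements tested were called, 25 higher and 25 lower, where 54.5% of all elements were called (25% higher, 29.6% lower). Hey2 -40740 bp, at a Notch target gene, rose by 5.99 in pMN (adjusted p = 1.03e-13) and at day 6 was lower in p3 than in pMN (-3.63, adjusted p = 1.83e-05), the same 2 directions as Dll1 -2975 bp. Between p3 and the other types 29 of 101 were called at day 6, 15 higher and 14 lower, where 34.9% of all were called (14.1% higher, 20.9% lower). Among the higher ones was Maml3 +126929 bp, at a gene for a Mastermind coactivator of the Notch complex (4.10 from p0-1, adjusted p = 5.49e-07). Hes5 -4037 bp, at another target gene, was lower in p3 than in p0-1 at day 5 (-2.78 on the log2 scale). None of 105 was called between SAG concentrations by limma, with 29 at an unadjusted p under 0.05 in at least 1 of the 4 fits.

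Short motifs were searched in the central 300 bases of the 66 members that are at least that wide, on both strands. The RBPJ letters GTGGGAA were found in 10 members (15.2%, against 6.85% of all elements), among them the Notch1 +1307 bp, Notch3 +4502 bp and Notch3 +556 bp elements and 4 elements of Jag1. The E-box letters CAGCTG were in 11 members (16.7%, against 21%) and CAGATG in 11 (16.7%, against 25.3%). The FOX letters TGTTTAC were in 2 (3.03%, against 4.92%), the SOX letters CCATTGT in 7 (10.6%, against 7.29%), the POU letters TTTGCAT in 4 (6.06%, against 6.21%) and the NKX2 letters TNAAGTG in 11 (16.7%, against 14.9%). The GLI letters ACCACCC were in 3 (4.55%, against 4.29%) and the homeodomain letters TAATTA in 8 (12.1%, against 7.81%). In the sequences printed above, Notch2 +22832 bp holds CAGCTG at bases 160 to 165 and 174 to 179 of the window. Jag1 -340963 bp holds a POU, a SOX and a CAGATG match, at bases 24 to 30, 93 to 99 and 164 to 169, and Jag1 -510806 bp and Notch1 +16359 bp hold none of the 9. A match of letters is a description and not a binding site.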

How the data were processed

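ATAC-seq of sorted progenitors was taken as deposited. The authors aligned reads to mm10 with nf-core atacseq, called peaks with MACS (q-value 1e-05), counted reads in consensus elements seen in 2 replicates, and deposited DESeq2 variance-stabilised values, which are on a log2 scale. Each value was inverted to the library's normalized count. Dividing by the smallest step gave whole reads for 100% of values below 1000 reads (tolerance 1e-06), which gives the depths.

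Groups came from the sample titles. limma 3.58.1 (R 4.3.3) was fitted with a variance trend to each pair of groups over all 111638 elements, and p-values were adjusted (Benjamini-Hochberg) over elements above a mean of 100 normalized counts. Replicates of a condition were independent differentiations, but groups of a type and day pool 2 SAG concentrations and compared types can share dishes, so p-values measure the spread between libraries. Named elements were, for each gene, the one nearest the start site and the one with the widest range of condition means, and for each comparison the 3 largest called increases and decreases. Others named in the text were chosen after their values were seen. The members, motif, marker and pathway lists were chosen with earlier results of these data known.

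The replicate numbers of the titles were taken to pair libraries where every same-numbered pair of libraries deviated together from the group means with a correlation above 0.1, which was so from day 5 to day 6 (lowest 0.294), for p3 at day 5 (0.352) and day 6 (0.115), among p0-1, p2 and pMN (0.275) and between SAG concentrations (0.615). For 15 samples the replicate number in the description differs from that in the title, and both were tried. Alternatives were the replicate block, voom on the recovered reads, other filters, thresholds, pseudocount and scaling, left-out replicates and, chosen after the data were seen, libraries of a type and day averaged by replicate number. Sequences and motif matches were read from the RefSeq GRCm38.p6 assembly (mm10). Peak annotation is the authors' HOMER table. A further 21911 annotated elements had no values and were not used here. The result of 1 further marker list is not reported here.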

Additional observations from a re-analysis of the deposited data

Results flagged for a closer look

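In 300 groups of 4 to 6 libraries (12 groups of a type and day for each of the 25 named elements), 14 values stood far from the rest of their group (4.67%, where chance gives about 1 in 20), in 8 different libraries. The day 4 p0-1 10 nM replicate 3 library was high at 4 elements. It had 1516 normalized counts at Notch2 +162 bp (other libraries 674.4 to 933.8), 640 at Dll4 +167 bp (273.1 to 395.5), 186.2 at Notch3 +4502 bp (92.2 to 121.4) and 109.6 at Dll4 -12280 bp (67.88 to 77.44). The day 6 p2 100 nM replicate 3 library had 288.4 at Notch2 +25661 bp (39.95 to 88.96), 137.7 at Notch2 +22832 bp (32.61 to 59.5) and 649.5 at Dll1 -2975 bp (932.2 to 1061), so that at all 3 it lay toward the p3 values.

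The day 6 p3 500 nM replicate 3 library was low at Notch2 +162 bp (901.1 against 974.5 to 988.6) and at Notch2 +61458 bp (78.65 against 107.4 to 112.1), and the day 5 p3 500 nM replicate 3 library at Notch2 +162 bp (904.8 against 979.6 to 1002). Replicate 1 of p3 at day 4 had 20.19 at Jag1 -510806 bp at 100 nM (30.33 to 34.18) and 213.6 at Jag1 -37122 bp at 500 nM (110.2 to 127.5). Jag1 -510806 bp was at 176.5 in replicate 1 of pMN at day 5 and 100 nM (114.6 to 120.5), and Jag1 -113477 bp at 1301 in replicate 3 of p2 at day 5 and 10 nM (992.1 to 1064).

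For 3 elements the change from day 4 to day 6 differed between p3 and the mean of the other types by the interaction test in limma, by 1.75 at Notch2 +22832 bp (adjusted p = 4.74e-05) and by 1.24 at both Jag1 -340963 bp (adjusted p = 0.00163) and Jag1 +23710 bp (adjusted p = 0.000614) on the VST scale.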

How the results depend on the processing

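No result reversed under any alternative. Counts of called elements are given in the order NMP to day 4, day 4 to 5, day 5 to 6, p3 against other types at days 4, 5 and 6, among p0-1, p2 and pMN, between SAG concentrations, and the interaction. Shares of all elements called under these settings are not given, so the counts show only how the calls at members moved. With a log2 fold change above 2 required, the counts were 11, 0, 0, 0, 4, 6, 0, 0 and 0. Without the filter on the mean, which admits all 69 elements, they were 52, 26, 9, 17, 31, 36, 18, 0 and 11. The count from day 5 to day 6 was 5 with the replicate block (title numbers), 3 with the description numbers as a block and 3 with voom. The block with the title numbers moved the interaction from 3 to 4 and changed no other count of members. When all libraries of a replicate number were left out, the counts ranged over 19 to 22, 10 to 11, 1 to 6, 5 to 8, 16 to 18, 14 to 17, 7 to 8, 0 to 0 and 1 to 2. When single libraries were left out they ranged over 19 to 24, 10 to 11, 1 to 4, 6 to 9, 16 to 17, 15 to 17, 7 to 9, 0 to 0 and 3 to 4. Of 43 values for named elements, Jag1 +5975 bp between p0-1 and pMN at day 6 lost its call in 4 settings (adjusted p = 0.0125 with the description numbers as a block, 0.0124 without the variance trend, 0.0311 with voom and 0.0914 with SAG concentrations averaged by replicate number). With that averaging, added after the data were seen, the counts were 20, 11, 1, 7, 16, 13, 6, 0 and 1, and 3 other named values lost their call, Dll4 -12280 bp from p0-1 to p2 at day 5 (adjusted p = 0.011) and the interactions of Jag1 -340963 bp (1.18, 0.0134) and Jag1 +23710 bp (1.29, 0.013). Motif shares over whole elements were higher for members and for all elements, 37.7% and 21.8% for RBPJ. Replicates number 2 or 3 per condition, and elements under the filter have too few reads for a fold change of 2 to be read firmly. The causes were not tested.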
